A study of Bos taurus with 9 samples.

Results

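The MHC class I antigen presentation genes were the 10 rows of the count table named B2M, BOLA, BOLA-NC1, JSP.1, TAP1, TAP2, TAPBP, ERAP1, ERAP2 and NLRC5, of 30641 rows in all. They were matched by name, from a list drawn up with earlier results of these data known, and 10 of the 10 had enough counts to be tested, among 14874 genes tested. The cells were labelled as bovine endometrial epithelial cells and were sequenced in 9 libraries, 3 in each of 3 groups. In the DPPA3 mRNA group, cells were transfected 24 hours after seeding with 500 ng of in vitro transcribed DPPA3 mRNA, carried by the transfection reagent jetMESSENGER. In the reagent alone group, cells received jetMESSENGER at the same 24 hours with no RNA. In the untreated control group, cells received neither. No group was given another mRNA, so the DPPA3 sequence and the presence of a synthetic mRNA cannot be told apart. The labels do not say that replicates were separate cultures or animals, so p-values measure the spread between these libraries, which may be technical.

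MHC class I molecules display peptides from inside the cell to cytotoxic T cells and natural killer cells. A heavy chain pairs with the light chain B2M, and peptides cut by the proteasome enter the endoplasmic reticulum through the transporter TAP1-TAP2. There tapasin (TAPBP) helps load them and the aminopeptidases ERAP1 and ERAP2 trim their ends. NLRC5, studied mainly in human and mouse cells, is the transactivator of class I genes, and interferons induce most of this pathway. In ruminants the conceptus secretes interferon tau, which acts on the endometrium, and class I expression there matters for maternal tolerance of the embryo.

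Total counts ran from 3890134 (reagent alone replicate 1) to 13258036 (DPPA3 mRNA replicate 1). DPPA3 had 126334 to 213790 counts in the DPPA3 mRNA libraries, 0 in each reagent alone library and 0 to 2 in the untreated controls, as the labels say. The label of epithelium was checked against 10 epithelial markers. KRT8 measured 3802 to 4995 CPM (counts brought to a common library size with TMM factors) and CDH1 37.6 to 58.7 CPM. EPCAM (0 to 0.78 CPM), CLDN4 (0 to 1.93 CPM) and FOXA2 (0 to 0.079 CPM) were too low to be tested. Of the 10 epithelial markers 7 were detected well enough to be tested, and of 10 stromal markers 10 were. Among the stromal markers the collagens COL1A1, COL1A2 and COL3A1 stood at 8085 to 18918, 11063 to 16021 and 6031 to 10226 CPM. VIM stood at 1321 to 1725 CPM and DCN at 89.3 to 260 CPM. Lower were THY1 at 0.18 to 1.29 CPM, PDGFRB at 6.41 to 17.2 CPM and HAND2 at 8.31 to 21.9 CPM. Of 15 leukocyte markers, which matter because leukocytes carry much class I, 4 (PTPRC, CD2, MS4A1 and ITGAM) had 0 counts in 9 libraries. Another 6 (CD4, CD79A, CD14, CD68, CSF1R and AIF1) were detected well enough to be tested. Among them AIF1 stood at 3.39 to 6.37 CPM and CD14 at 1.28 to 5.74 CPM. The summed level of the 15 was 10.6 to 16.6 CPM with DPPA3 mRNA, 12.0 to 15.2 CPM with reagent alone and 11.9 to 15.4 CPM in untreated cells. A change in how many cells of a type were present and a change in RNA per cell cannot be told apart in such bulk samples. Some libraries stood apart. The interferon-stimulated gene MX1 reached 27.9, 669 and 116 CPM in replicates 1, 2 and 3 of the DPPA3 mRNA group, against 8.72, 10.1 and 27.1 CPM with reagent alone and 5.80, 10.2 and 8.80 CPM in untreated cells. Untreated control replicate 1 had the smallest scaling factor of the 9 libraries, 0.856 against 1.001 to 1.05 in the other 8. Values without these libraries stand beside the results they move most.

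In cells given DPPA3 mRNA the class I genes were on average somewhat higher than with reagent alone, by 1.09-fold for TAPBP up to 1.64-fold for TAP1, and no single gene passed the test. Both groups had the reagent, so this comparison is about the mRNA. Of the 10 genes, 0 passed an adjusted p of 0.05 (edgeR quasi-likelihood, Benjamini-Hochberg over all genes, 0.9998 for each), where 0.00672% of all genes were called higher. An unadjusted p under 0.05 was found for 2, BOLA-NC1 and TAP1, where 1.27% of all genes had one in that direction. DESeq2, which called 0.0606% of all genes, and limma voom also called 0 of the 10. The fitted log2 fold change was above 0 for 10 of the 10, against 50.4% of all genes, with a median of 0.45 against 0.0027 over all genes. Every DPPA3 mRNA library lay above every reagent alone library for 2 of the 10, BOLA and BOLA-NC1, against 4.91% of all genes. The 10 genes were read in the same libraries, so they are not 10 separate observations.

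**Figure D1:**
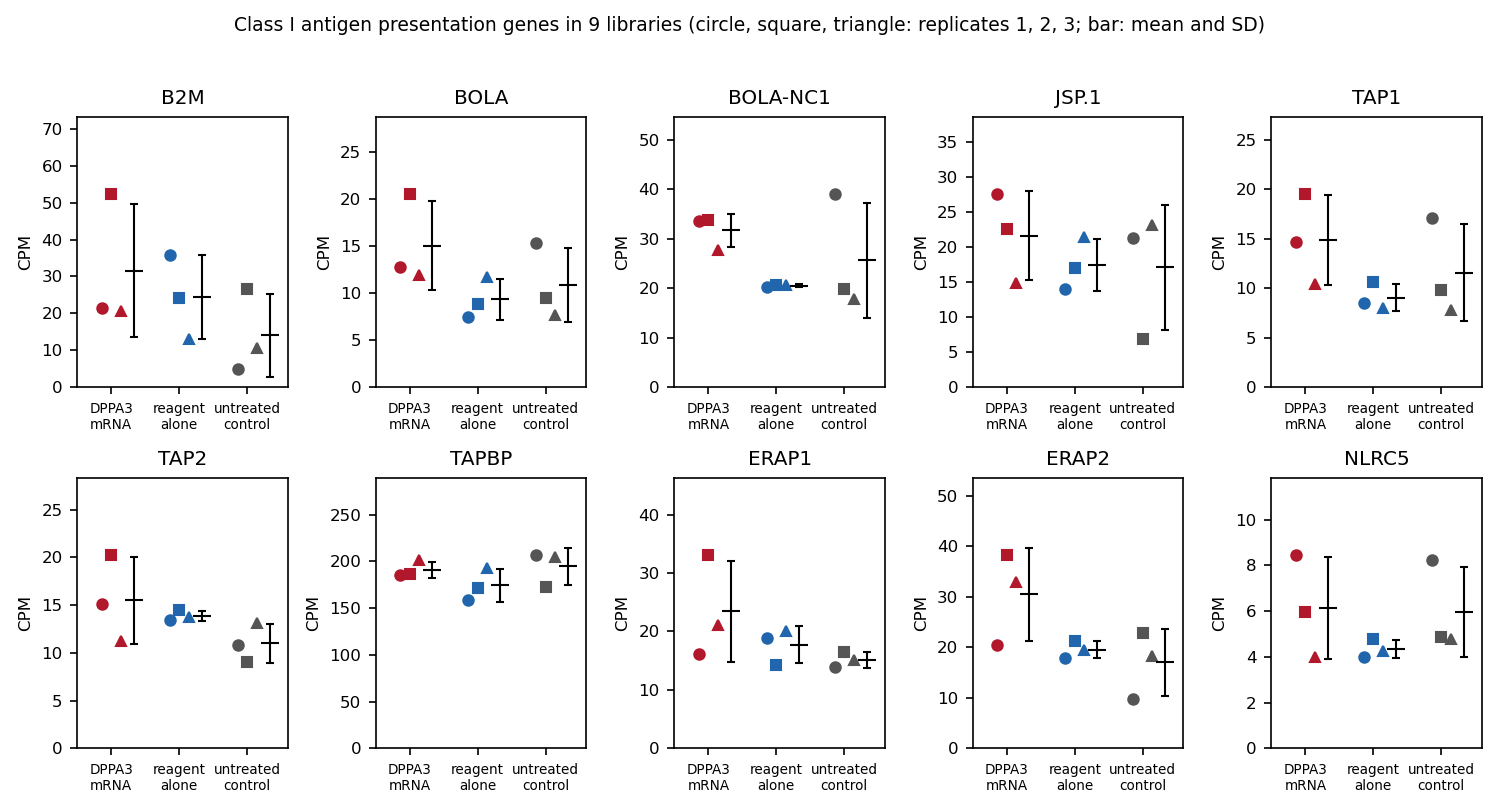
Level in CPM (y axis, from 0, one scale per gene) of the 10 class I antigen presentation genes in the 9 libraries, by group (x axis), with the mean and SD of 3 libraries as a bar beside the points. DPPA3 mRNA replicate 2 (red square) is the highest library for 6 genes, and TAPBP varies least, from 159 to 207 CPM.

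Among the heavy chains, BOLA-NC1 and BOLA were separate between transfected and reagent alone libraries and JSP.1 was not. BOLA-NC1, which encodes a non-classical heavy chain, stood at 33.5, 33.8 and 27.8 CPM in the 3 DPPA3 mRNA libraries, 20.2, 20.7 and 20.6 CPM with reagent alone, and 39.0, 19.9 and 17.9 CPM in untreated cells, each given in the order of replicates 1 to 3. The transfected libraries lay above the 3 reagent alone libraries, which were nearly equal, while the highest library of the 9 was untreated control replicate 1. Its mean was 31.7 ± 3.40 CPM with DPPA3 mRNA, against 20.5 ± 0.31 CPM for reagent alone (SD, n = 3 each), a log2 fold change of 0.62 (SE 0.27, 95% interval 0.047 to 1.20; edgeR unadjusted p 0.036, adjusted p 0.9998). It was 0.58 without DPPA3 mRNA replicate 2, and 0.58 to 0.71 over the 6 libraries left out in turn.

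BOLA, another heavy chain gene, stood at 12.7, 20.5 and 11.9 CPM in the 3 DPPA3 mRNA libraries, 7.47, 8.80 and 11.7 CPM with reagent alone, and 15.3, 9.53 and 7.73 CPM in untreated cells. The transfected and reagent alone groups did not overlap, but the nearest libraries were close (11.9 and 11.7 CPM), and the transfected libraries overlapped the untreated ones. Its log2 fold change over reagent alone was 0.67 (SE 0.32; edgeR adjusted p 0.9998). Leaving out DPPA3 mRNA replicate 2 gave 0.38.

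JSP.1, the remaining heavy chain row, did not follow the other 2. It stood at 27.5, 22.5 and 14.9 CPM in the 3 DPPA3 mRNA libraries, 13.9, 17.1 and 21.3 CPM with reagent alone, and 21.3, 6.82 and 23.2 CPM in untreated cells. The 3 groups overlapped, and the low value of untreated control replicate 2 came from 63 counts. The log2 fold change over reagent alone was 0.30 (95% interval -0.52 to 1.11), and 0.079 without DPPA3 mRNA replicate 1.

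Class I heavy chain genes are near-identical copies, so reads may be split or lost among them in ways the sources used here do not describe, and their separate values are uncertain. The 3 rows were therefore also summed and tested as 1, a choice made after the data were seen. The sum was 73.7, 76.8 and 54.5 CPM in DPPA3 mRNA libraries, 41.6, 46.6 and 53.7 CPM with reagent alone, and 75.6, 36.3 and 48.8 CPM in untreated cells. The transfected libraries lay above the reagent alone libraries, by a narrow gap at the closest pair. On the log2 scale the difference from reagent alone was 0.53 (SE 0.24, 95% interval 0.00073 to 1.05; edgeR unadjusted p 0.0497, adjusted p 0.9998), and over untreated control 0.36 (95% interval -0.17 to 0.88; adjusted p 0.85). The value over untreated control was 0.69 without untreated control replicate 1 and 0.14 without untreated control replicate 2. Rows with similar names were left out by the exact match. BoLA, a separate class I locus in RefSeq, measured 25.4, 50.8 and 30.9 CPM with DPPA3 mRNA, against 27.1, 28.4 and 27.7 CPM with reagent alone (log2 fold change 0.36, edgeR adjusted p 0.9998). Without DPPA3 mRNA replicate 2 that value was 0.020. The rows BOLA_1, BOLA_2 and BOLA_3 had 1522, 229 and 1 counts over the 9 libraries, and no annotation used here says which loci they are. Over reagent alone BOLA_1 was at 0.33 (SE 0.23) and BOLA_2 at 0.60 (SE 0.46) on the log2 scale. The edgeR adjusted p was 0.9998 for each. Both rows had DPPA3 mRNA and reagent alone groups that did not overlap, as had 4.91% of all genes in this direction. The gaps were narrow. The nearest libraries had 18.8 and 18.7 CPM for BOLA_1, and 3.31 and 3.23 CPM (39 and 36 counts) for BOLA_2. The log2 fold change of BOLA_2 ranged from 0.39 without reagent alone replicate 3 to 1.03 without reagent alone replicate 2.

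The make-up of the heavy chain counts did not separate the groups. JSP.1 took 37.3%, 29.3% and 27.3% of the counts of the 3 heavy chain rows in the 3 DPPA3 mRNA libraries, 33.5%, 36.6% and 39.7% with reagent alone, and 28.1%, 18.8% and 47.5% in untreated cells. Untreated cells spanned the values of both other groups. A two-sided exact permutation test of the mean share (31.3% with DPPA3 mRNA, 36.6% with reagent alone) gave p = 0.3, where 3 against 3 libraries cannot go below 0.1. Of 9 such tests over 3 ratios and 3 comparisons, the smallest adjusted p was 0.79.

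B2M, the light chain shared by every class I molecule, had the widest range of the 10 genes over the 9 libraries. It stood at 21.6, 52.3 and 20.7 CPM in the 3 DPPA3 mRNA libraries, 35.9, 24.3 and 13.0 CPM with reagent alone, and 4.83, 26.6 and 10.7 CPM in untreated cells. The highest library was 10.8-fold above the lowest, and the low value of untreated control replicate 1 came from 30 counts (exact Poisson 95% interval 20.2 to 42.8, counting error only). The log2 fold change over reagent alone was 0.40 (SE 0.53, 95% interval -0.74 to 1.53; edgeR adjusted p 0.9998). Without DPPA3 mRNA replicate 2 it was -0.18. Set against the heavy chains, B2M had 29.2, 68.1 and 38.0 counts per 100 heavy chain counts with DPPA3 mRNA, 86.2, 52.0 and 24.2 with reagent alone, and 6.40, 73.4 and 21.8 in untreated cells. The ratio ranged widely inside each group and the groups overlapped (exact permutation p = 0.7 for DPPA3 mRNA against reagent alone).

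**Figure D2:**
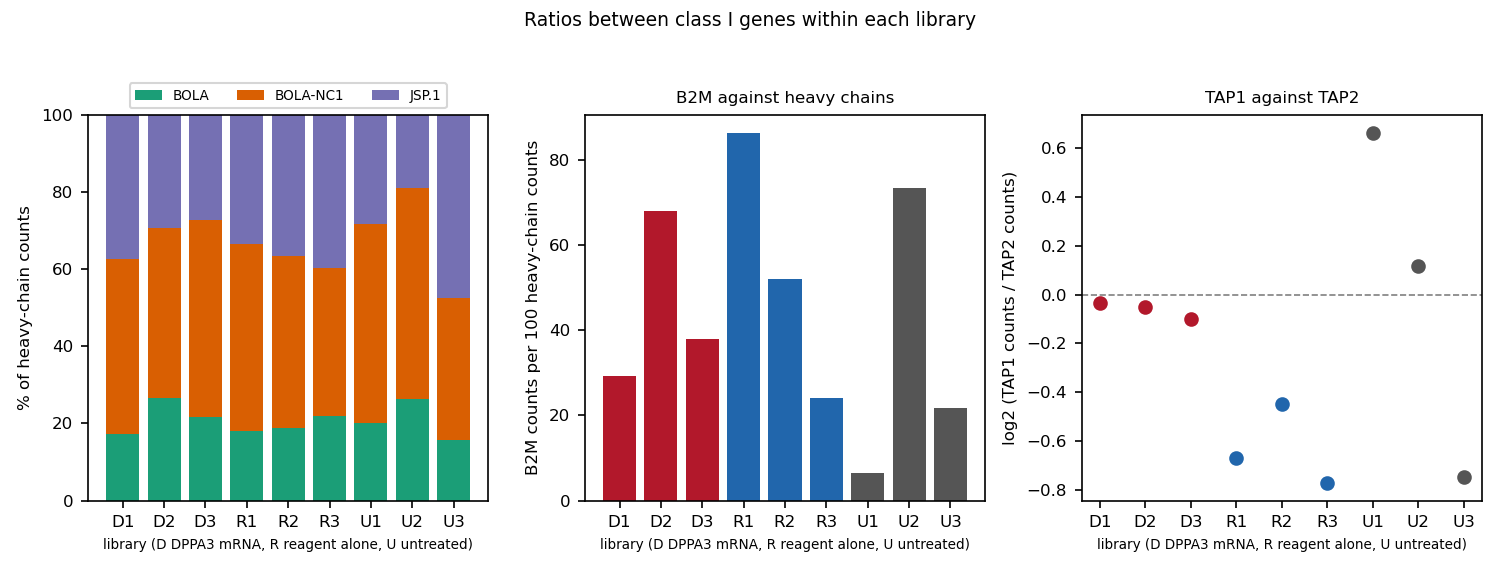
Left, the share of BOLA, BOLA-NC1 and JSP.1 in the counts of these 3 heavy chain rows (%); middle, B2M counts per 100 heavy chain counts; right, log2 of TAP1 over TAP2 counts, in each of the 9 libraries (x axis). The 3 DPPA3 mRNA libraries lie between -0.10 and -0.037 on the right, and the 3 reagent alone libraries between -0.77 and -0.45.

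The transporter subunits differed in pattern. TAP1 stood at 14.7, 19.5 and 10.4 CPM in the 3 DPPA3 mRNA libraries, 8.47, 10.6 and 8.04 CPM with reagent alone, and 17.1, 9.85 and 7.82 CPM in untreated cells. DPPA3 mRNA replicate 3 and reagent alone replicate 2 nearly met, so the groups overlapped by 1 library. On the log2 scale the difference from reagent alone was 0.71 (SE 0.32, 95% interval 0.014 to 1.41; edgeR unadjusted p 0.046, adjusted p 0.9998). It was 0.47 when DPPA3 mRNA replicate 2 was left out. TAP2 measured 15.1, 20.2 and 11.2 CPM in DPPA3 mRNA libraries, 13.4, 14.5 and 13.7 CPM with reagent alone, and 10.8, 9.09 and 13.1 CPM in untreated cells. The transfected libraries lay on both sides of the tight reagent alone group, and TAP2 had a log2 fold change of 0.16 (95% interval -0.40 to 0.71), which became -0.078 without DPPA3 mRNA replicate 2.

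The balance of the subunits is a ratio within each library and does not depend on scaling. The log2 ratio of TAP1 to TAP2 counts was -0.037, -0.052 and -0.10 in the 3 DPPA3 mRNA libraries, -0.67, -0.45 and -0.77 with reagent alone, and 0.66, 0.12 and -0.74 in untreated cells. Relative to TAP2, TAP1 was higher in each transfected library than in each reagent alone library, by 0.57 on average, and the untreated libraries lay scattered from -0.74 to 0.66. The two-sided exact permutation test gave p = 0.1, the smallest that 3 against 3 allows, and an adjusted p of 0.79 over the 9 tests. No ratio could reach 0.05 with 3 against 3 libraries, so the test cannot decide whether this ratio differed. In RefSeq gene order (ARS-UCD2.0, used for names and neighbours) TAP1 lies between the immunoproteasome genes PSMB8 and PSMB9, and TAP2 lies next to the class II gene BOLA-DOB.

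TAPBP, which bridges the transporter and the empty class I molecule, was the steadiest of the 10. It stood at 185, 187 and 201 CPM in the 3 DPPA3 mRNA libraries, 159, 171 and 193 CPM with reagent alone, and 207, 172 and 205 CPM in untreated cells. The highest of the 9 libraries was 1.30-fold above the lowest and the groups overlapped. Its counts were also the largest, 638 to 2458 per library. The fold over reagent alone was 1.09, with a 95% interval of 0.885 to 1.35.

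The trimming enzymes lie side by side in RefSeq order, ERAP1 between CAST and ERAP2. ERAP1 stood at 16.2, 33.1 and 21.1 CPM in the 3 DPPA3 mRNA libraries, 18.9, 14.2 and 20.1 CPM with reagent alone, and 13.9, 16.5 and 15.1 CPM in untreated cells. DPPA3 mRNA replicate 2 stood above the other 8 libraries. The gene had a log2 fold change over reagent alone of 0.41 (SE 0.27), and 0.078 without that library. The mean of ERAP1 was 23.5 ± 8.66, 17.7 ± 3.12 and 15.1 ± 1.30 CPM in DPPA3 mRNA, reagent alone and untreated cells (SD, n = 3 each). ERAP2 measured 20.4, 38.2 and 32.8 CPM in DPPA3 mRNA libraries, 17.9, 21.2 and 19.4 CPM with reagent alone, and 9.83, 22.8 and 18.3 CPM in untreated cells. Replicates 2 and 3 of the DPPA3 mRNA group were above the 6 other-group libraries, while replicate 1 was among them. The log2 fold change over reagent alone was 0.64 (SE 0.30, 95% interval -0.0090 to 1.28; edgeR adjusted p 0.9998). It was 0.44 when DPPA3 mRNA replicate 2 was left out.

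NLRC5 had the fewest counts of the 10 genes, 16 (exact Poisson 95% interval 9.15 to 26.0) to 112 per library. It stood at 8.45, 5.96 and 3.99 CPM in the 3 DPPA3 mRNA libraries, 3.98, 4.76 and 4.25 CPM with reagent alone, and 8.22, 4.87 and 4.79 CPM in untreated cells. Its highest transfected library was replicate 1, the one with the least MX1 of the 3, and replicate 3 was level with reagent alone. On the log2 scale the difference from reagent alone was 0.49 (95% interval -0.30 to 1.28; edgeR adjusted p 0.9998). It was 0.19 when DPPA3 mRNA replicate 1 was left out.

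**Figure D3:**
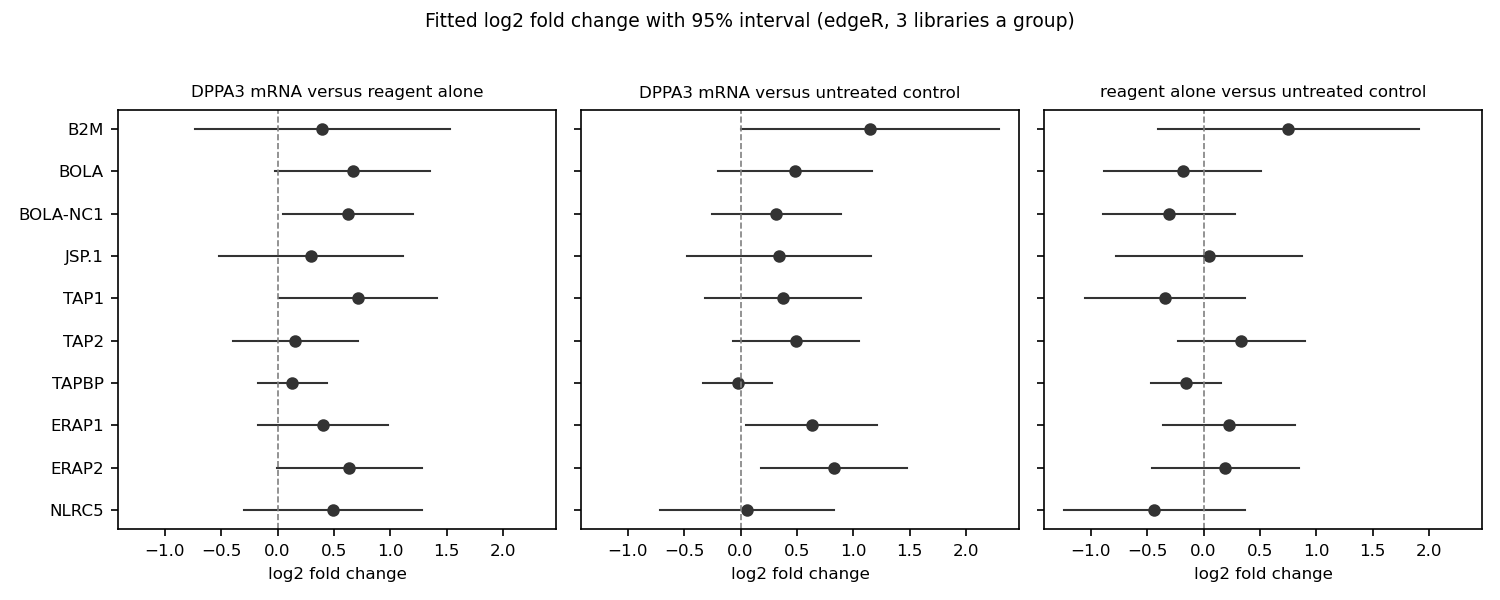
Fitted log2 fold change (x axis, points) with its 95% interval (lines) for each gene (rows) in the 3 comparisons, from 1 edgeR fit over 9 libraries; pairs of panels share a group of libraries. Over reagent alone the 10 points lie between 0.13 and 0.71, and over untreated control DPPA3 mRNA gives B2M the largest point, 1.15.

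Against untreated cells, which measures reagent and mRNA together, 9 of the 10 genes had a log2 fold change above 0, against 50.2% of all genes, with a median of 0.43 against 0.0017. By edgeR 0 of the 10 were called, where 0.0134% of all genes were called higher, and DESeq2, which called 0.0673% of all genes, and voom also called 0. With the replicate number as a block, edgeR called 7 genes of all tested, against 2 without it, and 0 of the 10. An unadjusted p under 0.05 was found for 3 of the 10, each higher, where 2.09% of all genes had one in that direction and 1.82% in the other. These were ERAP2 (log2 fold change 0.83, SE 0.30, edgeR adjusted p 0.85), ERAP1 (0.63, SE 0.27, adjusted p 0.85) and B2M (1.15, SE 0.53, adjusted p 0.85). The DPPA3 mRNA libraries were separate from the untreated ones for 0 of the 10, against 4.24% of all genes above and 3.86% below. The value for B2M was 0.58 when DPPA3 mRNA replicate 2 was left out, 0.76 when untreated control replicate 1 was and 0.19 when both were. With both left out ERAP1 was at 0.25 and ERAP2 at 0.37. For BOLA-NC1 the value was 0.32 and became 0.75 without untreated control replicate 1, the library with its highest level. NLRC5 was at 0.057 (95% interval -0.72 to 0.83), and TAPBP at -0.027 (95% interval -0.33 to 0.28).

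Reagent alone against untreated cells gave the background of the reagent. The median log2 fold change of the 10 genes was -0.055, against -0.0099 over all genes, and 5 were above 0, against 49.2% of all genes. By edgeR 0 of the 10 were called, where 0% of all genes were called in either direction, and 0 of the 10 had an unadjusted p under 0.05, against 4.23% of all genes higher and 5.96% lower. DESeq2, which called 0.0135% of all genes, and voom also called 0 of the 10. TAP2 was the 1 gene whose reagent alone libraries lay above every untreated library (6.92% of all genes did) and NLRC5 the 1 gene whose libraries lay below (7.21%). Their log2 fold changes were 0.33 (95% interval -0.23 to 0.90) and -0.44 (95% interval -1.24 to 0.37). Leaving out untreated control replicate 1 moved BOLA to 0.15, BOLA-NC1 to 0.13 and TAP1 to 0.049, against -0.18, -0.31 and -0.34 with it. ERAP2 moved to -0.059, against 0.19 with it.

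The libraries that stood apart did so in different ways. DPPA3 mRNA replicate 2 was the highest of the 9 libraries for B2M, BOLA, TAP1, TAP2, ERAP1 and ERAP2, and not for BOLA-NC1, JSP.1, TAPBP and NLRC5. Untreated control replicate 1 split the pathway. Within its group it was highest for BOLA, BOLA-NC1, TAP1, TAPBP and NLRC5, with BOLA-NC1 at 2.06-fold and TAP1 at 1.93-fold the mean of the other untreated libraries. The same library was lowest for B2M, ERAP1 and ERAP2, with B2M at 0.259 and ERAP2 at 0.478 times that mean. Summed over 8 interferon-stimulated genes the level was 92.4, 1778 and 274 CPM in the 3 DPPA3 mRNA libraries, 20.2, 26.6 and 67.5 CPM for reagent alone and 36.3, 29.7 and 36.0 CPM in untreated cells. Across the 9 libraries, which share 3 treatments, each gene was set against the mean log2 level of that list. Pearson r was 0.86 for ERAP1 (0.52 without DPPA3 mRNA replicate 2), 0.79 for BOLA (0.54) and 0.73 for ERAP2 (0.55). TAP2 gave 0.63 (0.098), TAP1 0.61 (0.21), BOLA-NC1 0.55 (0.44) and B2M 0.45 (0.0033). JSP.1 gave 0.35 (0.30), TAPBP 0.28 (0.48) and NLRC5 0.18 (0.082). Spearman rho was 0.57 for ERAP1, 0.73 for BOLA and 0.55 for ERAP2, and also 0.57 for JSP.1. The part of the interferon-stimulated genes in the class I levels was not tested.

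**Figure D4:**
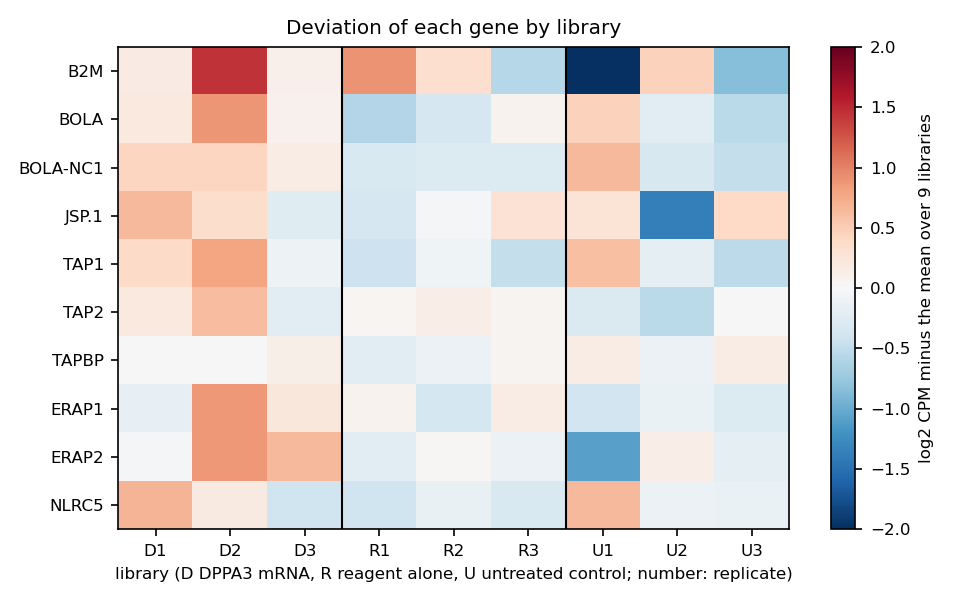
Log2 CPM of each gene (rows) minus its own mean over the 9 libraries (columns, 3 per group between the black lines), red for above and blue for below. DPPA3 mRNA replicate 2 (D2) is red for B2M, BOLA, TAP1, TAP2, ERAP1 and ERAP2, and untreated control replicate 1 (U1) is blue for B2M and ERAP2 but red for BOLA-NC1, TAP1 and NLRC5.

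Correlations of log2 CPM between the genes were taken over the same 9 libraries. Untreated control replicate 1 was among them, so its split enters these values and they are no separate sign of it. The points are 9 libraries that share 3 treatments, so the correlations are descriptions. TAP1 followed BOLA-NC1 (Pearson r 0.92, Spearman rho 0.90) and BOLA (0.86 and 0.80), and NLRC5 followed TAP1 (0.78 and 0.62) and BOLA-NC1 (0.77 and 0.50). B2M instead followed ERAP2 (0.79 and 0.55) and ran opposite to TAPBP (-0.69 and -0.80). Of the 45 pairs 34 had a Pearson r above 0, with a median of 0.34.

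Among 10433 other genes with a name and at least 5 CPM, the closest to each member were also found by Pearson r over the 9 libraries. These are the highest of many values over few libraries, so a high r comes partly from that choice. ERAP1 was close to PARP14 and SP140L (r 0.96 for both), which are interferon-inducible genes, and these values were 0.79 and 0.80 without the 2 libraries farthest from the median of ERAP1. B2M was nearest to TGFA and ATAD1 (0.97 for both), TAPBP to BMP4 (0.98), NLRC5 to TMEM185B (0.96) and ERAP2 to HERPUD2 (0.95). With the 2 libraries farthest from each member's median left out, these were 0.96 and 0.93 for B2M and 0.95 for TAPBP. They were then 0.85 for NLRC5 and 0.75 for ERAP2. BOLA was nearest to ADA and DOLPP1 (0.90 for both), with the immunoproteasome subunit PSMB10 next (0.89). For BOLA-NC1 it was SH3BP5 (0.92), for TAP1 DLC1 (0.89), and for TAP2 GLB1 (0.90) and then HERC5, an interferon-inducible ligase (0.88). Without the 2 libraries farthest from the median of TAP2, GLB1 stayed at 0.90 and HERC5 fell to 0.63. JSP.1 was nearest to PLEK2 (0.85), a value that was 0.50 without the 2 farthest libraries.

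The rest of the class I pathway was read from the same fit. The 5 inducible proteasome genes PSMB8, PSMB9, PSMB10, PSME1 and PSME2 had log2 fold changes over reagent alone of 0.21 to 0.68 (median 0.36, and 0.20 without DPPA3 mRNA replicate 2), with 0 called. PSMB8, the neighbour of TAP1, measured 32.9, 39.6 and 24.9 CPM with DPPA3 mRNA, against 27.6, 17.7 and 24.3 CPM with reagent alone. The 12 helpers of folding, loading and trimming in the endoplasmic reticulum and cytosol had a median of -0.025, with 0 called. The smallest p in this list was that of TAPBPL, a tapasin relative that edits peptides, which stood at 48.9, 51.5 and 46.3 CPM with DPPA3 mRNA, against 35.9, 38.8 and 45.1 CPM with reagent alone (log2 fold change 0.29, SE 0.16, edgeR adjusted p 0.9998). The chaperone HSPA5 was at -0.14 (SE 0.15) and the peptidase TPP2 at -0.19 (SE 0.15), which was -0.074 without reagent alone replicate 1. Every DPPA3 mRNA library lay above every reagent alone library for 1 of the 12, TAPBPL, against 4.91% of all genes. Every one lay below for 1, HSPA5, against 3.99% of all genes.

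Of 15 transcription factors that act on class I promoters, 0 were called over reagent alone, where 0.00672% of all genes were called. An unadjusted p under 0.05 was found for 3 of the 15, each with a positive log2 fold change, where 1.27% of all genes had one in that direction. IRF1, which binds the interferon element of class I promoters, measured 13.6, 18.3 and 12.7 CPM in DPPA3 mRNA libraries, 9.96, 6.83 and 8.74 CPM with reagent alone and 8.86, 7.69 and 9.58 CPM in untreated cells. The 3 transfected libraries lay above the 6 others (log2 fold change over reagent alone 0.82, SE 0.26, edgeR unadjusted p 0.0070, adjusted p 0.9998). Without DPPA3 mRNA replicate 2 the value for IRF1 was 0.64. Of all genes, 4.91% lay above every reagent alone library in this way and 4.24% above every untreated library. Over reagent alone 5 of the 15 did so. IRF9, the DNA-binding part of the interferon-activated ISGF3 complex, measured 37.6, 105 and 61.5 CPM with DPPA3 mRNA, against 26.9, 24.8 and 38.0 CPM with reagent alone (log2 fold change 1.17, SE 0.32, edgeR adjusted p 0.9998). For IRF9 the value was 0.72 without DPPA3 mRNA replicate 2. STAT2, its partner, had a log2 fold change of 0.38 (SE 0.17), and 0.29 without DPPA3 mRNA replicate 2. The list also held RFX5 and the NF-Y subunits, which NLRC5 acts through in human and mouse cells, and its median over the 15 was 0.13.

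Class II presentation and class I-like genes gave no call either. Of 17 class II genes fixed, 7 were tested, with a median log2 fold change of 0.052 over reagent alone, and 0.011 to 0.17 with single libraries left out. CIITA, the class II counterpart of NLRC5, measured 14.4, 13.0 and 11.0 CPM with DPPA3 mRNA, against 12.7, 10.2 and 10.3 CPM with reagent alone (log2 fold change 0.23, 95% interval -0.26 to 0.71, and 0.13 without DPPA3 mRNA replicate 1). The class II chain BOLA-DRA had 24 counts over the 9 libraries and was not tested. BOLA-DMB, which loads class II peptides, had 17, 35 and 15 counts with DPPA3 mRNA and 2, 13 and 6 with reagent alone (log2 fold change 1.35, SE 0.84, edgeR adjusted p 0.9998), a value that was 0.79 without DPPA3 mRNA replicate 2. Of 12 class I-like genes fixed, 6 were tested, with a median of 0.18. The log2 fold change over reagent alone had a median of 4.28 in 8 interferon-stimulated genes, and 2.45 without DPPA3 mRNA replicate 2. By edgeR 0 of the 8 were called, where 0.00672% of all genes were called. Without DPPA3 mRNA replicate 1, 5 of the 8 were called, and 20 genes over the whole table. With all libraries, an unadjusted p under 0.05 was found for 8 of the 8, where 1.27% of all genes had one in that direction. This list was chosen with earlier results of these data known, so that count is a description and no separate support.

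**Figure D5:**
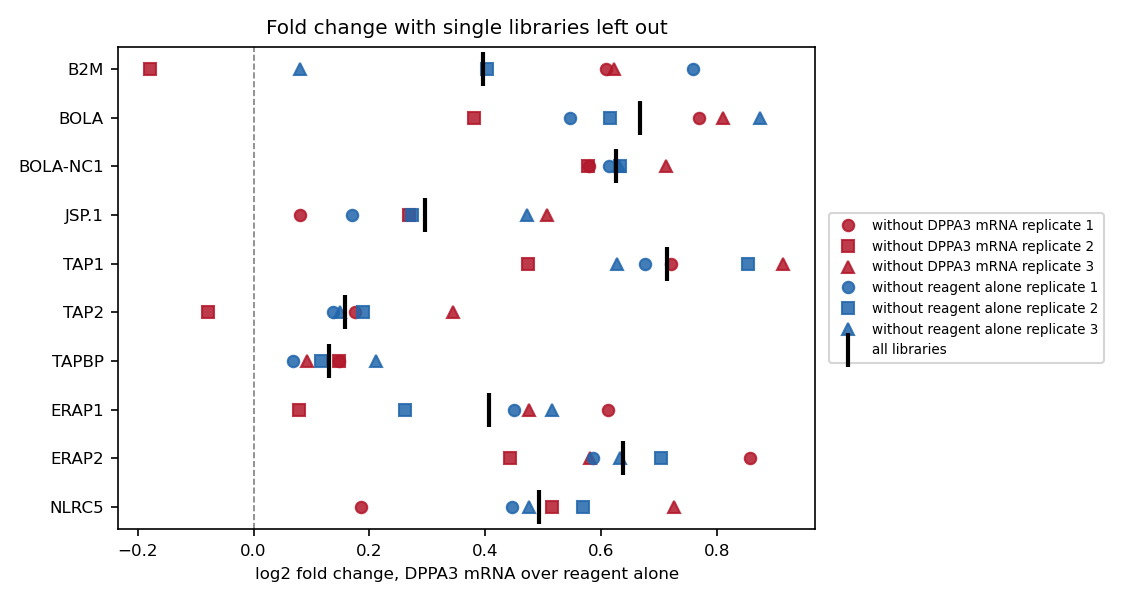
Log2 fold change of DPPA3 mRNA over reagent alone (x axis) for each gene (rows) with all 9 libraries (black bar) and with each of the 6 compared libraries left out in turn (points). Without DPPA3 mRNA replicate 2 (red square) B2M and TAP2 lie below 0, at -0.18 and -0.078, while BOLA-NC1 stays between 0.58 and 0.71 under the 6.

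Leaving out single libraries showed which values rested on DPPA3 mRNA replicate 2. Without it the median of the 10 genes over reagent alone was 0.32, against 0.45 with it. BOLA-NC1, JSP.1, NLRC5 and TAPBP had values of 0.58, 0.27, 0.51 and 0.15 without it, close to those with it. B2M, TAP2 and ERAP1 were near 0 or below it (-0.18, -0.078 and 0.078). JSP.1 and NLRC5 moved more without DPPA3 mRNA replicate 1, to 0.079 and 0.19. Over the 6 single libraries left out, 0 of the 10 genes were called.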

How the data were processed

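Total RNA for the 9 libraries was extracted with TRIzol and treated with DNase, and the IDT xGen RNA Library Kit was used, per the labels' protocols. The authors deposited raw counts, 1 row for each gene symbol. HISAT2, HTSeq, Trimmomatic and edgeR are named in the submitters' processing notes without versions or roles. Genome build and strand use: not given in the sources used here. No sequence or coordinate is printed. Transcript lengths were not used here, so levels are compared within a gene and not between genes. RefSeq symbols of the assembly ARS-UCD2.0 matched 24552 of the 30641 rows and 10 of the 10 members.

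The counts were filtered with filterByExpr, scaled with TMM and fitted in 1 model of group over the 9 libraries, using glmQLFit and glmQLFTest of edgeR 4.0.16 under R 4.3.3. Adjusted p-values are Benjamini-Hochberg over all 14874 genes, called under 0.05. The standard error is the log2 fold change over the square root of F, and 95% intervals use the moderated degrees of freedom. The common biological coefficient of variation was 0.255. A count of 0 allows up to 3 counts, or 0.226 to 0.747 CPM. No pair of libraries within a group looked like a library deposited again (chi-square per degree of freedom at least 13.4). Scripts were tested on simulated data.

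The members and lists were chosen with earlier results of these data known. The text names the 10 members and up to 4 genes of each other list with the smallest p. For each member the 3 genes of most similar pattern were found, by Pearson r of log2 CPM with a prior count of 2. Of these the text names the nearest and only some of the others, which were picked by no rule, so they are no measure of interferon likeness. BOLA-DRA, the BoLA rows, RFX5, NF-Y, MX1 and the marker genes were named outside this rule. A gene that the rule names is not reported here.

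Equal replicate numbers of DPPA3 mRNA and untreated control deviated together, with correlations of 0.34, 0.32 and 0.12, each over the limit of 0.1. These numbers were taken as a pairing from the data, and a fit with the replicate number as a block was an alternative. Others were DESeq2 1.42.0 (size factors or Wald test), no filter, limma 3.58.1 voom with quality weights, fewer libraries, and DPPA3 left out. Leaving out DPPA3 mRNA replicate 2 with untreated control replicate 1, the summed heavy chains, and single libraries left out for the other genes and lists, were added after seeing the data.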

Additional observations from a re-analysis of the deposited data

How the results depend on the processing

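Under the 14 alternatives per comparison 0 of the 10 genes were called, and their median log2 fold change stayed between 0.31 and 0.60 over reagent alone, 0.26 and 0.60 over untreated control, and -0.25 and 0.14 for reagent alone over untreated control. Counts of the 10 genes started at 16 per library, and with 3 libraries a group the intervals for B2M, JSP.1 and NLRC5 were wide.

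The summed heavy chains over untreated control ranged from 0.14 to 0.69 with single libraries left out. The number of genes called over the whole table moved more; the cause was not tested. In the order DPPA3 mRNA over reagent alone, DPPA3 mRNA over untreated control, and reagent alone over untreated control, it was 1, 2 and 0. It became 66, 69 and 18 with no filter and 9, 10 and 2 with DESeq2. Voom gave 4 against untreated control and 2 for reagent alone. Leaving out DPPA3, which also removed it from the test, gave 0 and 0 for the first 2. Single libraries left out gave 1 to 20, 1 to 26 and 0 to 1, with 20 and 26 reached without DPPA3 mRNA replicate 1. Without DPPA3 mRNA replicate 2 and untreated control replicate 1 together it was 2 against reagent alone.

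The replicate number as a block joins libraries of equal number in all 3 groups. With it, 2 genes were called for DPPA3 mRNA against reagent alone and 7 against untreated control, and 0 of the 10 class I genes in each. The block changed no call among the 10 in any comparison. Libraries of equal number correlated at 0.14, 0.12 and 0.086 between DPPA3 mRNA and reagent alone, and at 0.15, 0.14 and 0.093 between reagent alone and untreated control. Each library was closest to that of its own number, which is a hint in the data only.

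Several uncalled fold changes changed sign. Voom gave TAP2 -0.041 over reagent alone, JSP.1 -0.11 over untreated control, and for reagent alone over untreated control BOLA 0.24, BOLA-NC1 0.14, TAP1 0.14 and JSP.1 -0.16. Without both DPPA3 mRNA replicate 2 and untreated control replicate 1, B2M was at -0.17 and TAP2 at -0.085 over reagent alone and TAPBP at 0.039 over untreated control. For reagent alone over untreated control BOLA was then at 0.15, BOLA-NC1 at 0.13, TAP1 at 0.049, ERAP2 at -0.058 and the summed heavy chains at 0.17. With single libraries left out, B2M ranged from -0.18 to 0.76 and TAP2 from -0.078 to 0.34 over reagent alone. DPPA3 mRNA over untreated control ranged from -0.039 to 0.64 for JSP.1, -0.25 to 0.35 for NLRC5 and -0.11 to 0.024 for TAPBP. Reagent alone over untreated control ranged from -0.39 to 0.15 for BOLA, -0.51 to 0.13 for BOLA-NC1, -0.33 to 0.35 for JSP.1, -0.56 to 0.049 for TAP1, -0.059 to 0.46 for ERAP2 and -0.38 to 0.17 for the summed heavy chains.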
